A study of Drosophila melanogaster with 2 samples.

Results

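Of the 48 proteasome subunit genes of Drosophila melanogaster, 2 carried an optimal summit within 1 kb of one of their own transcript starts. Optimal summits are those of binding peaks of the GFP-tagged transcription factor tailup (tup) that passed the authors' test of reproducibility. Both genes encode subunits of the lid of the particle, Rpn3 and Rpn5. Rpn3 had a peak there among the 2241 strongest of each replicate alone, and Rpn5 only in replicate 2. The 2 genes were 4.17% of the proteasome genes (Wilson 95% interval 1.15 to 14.0%), against 13.3% of all 13968 protein-coding genes of the annotation. The interval includes the share of all genes, so at this count the difference does not exceed counting error. The genes were those whose symbols begin with Prosalpha, Prosbeta, Rpn or Rpt, the last 2 followed by a digit. They comprised 32 core subunit genes and 16 paralogs, whose symbols add R or T to the symbol of a core gene.

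The proteasome is the particle that degrades proteins marked with ubiquitin. Its 20S core is a barrel of alpha and beta rings with the peptidases inside, and its 19S cap has a base of ATPases that unfold the substrate and a lid that removes the ubiquitin chain. The core subunits are made in nearly every cell, and many of the fly paralogs are known from the male germ line, where the alpha paralogs of the T class replace their parents. Tup is the fly Islet-type LIM-homeodomain protein, known for its part in the fates of neurons, heart and dorsal tissues of the embryo.

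Chromatin immunoprecipitation with sequencing (ChIP-seq) with an anti-GFP antibody had been done on whole embryos of 0 to 24 h, male and female together, from a transgenic stock with stable expression of tup fused at its C terminus to GFP. The data were 1 group of 2 biological replicates, both of the same line, with no other genotype, treatment or age, so no groups could be compared. What drives the tagged gene is not given in the sources used here, and whole embryos do not show in which cells a site was bound. The deposited peak lists in dm6 coordinates were a candidate list of 30000 peaks for each replicate, one of 30000 peaks for both replicates pooled, and an optimal list of 2241 peaks that passed the authors' test of reproducibility. The optimal peaks were exactly the 2241 strongest pooled candidates by the caller's signal. This is a value for each peak that the authors deposited and that has its own scale in each list. Signal ran from 68.7 to 1283 in the optimal list, with a median of 102, and from 19.9 to 1283 in the pooled list, with a median of 27.3. It ran from 15.2 to 760 in replicate 1, with a median of 20.8, and from 7.81 to 528 in replicate 2, with a median of 11.0. The depth of each replicate is unknown, and a missing candidate says only that no peak was listed there. Ranks below count from 1 at the strongest peak of a list.

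Sequences at 4 core genes are given as examples and do not stand for bound and unbound promoters in general. All are read on the plus strand of the assembly that dm6 names, from the RefSeq copy. Capitals mark matches, on either strand, to the DRE (TATCGATA), the site known for the factor Dref, and to the core site of the boundary protein BEAF-32 (CGATA), which the DRE contains. The first is the promoter of Rpn3, 2L:19051583-19051789, which ends at the base before the gene's start. The second is the 101 bp window around the Rpn5 summit, 3R:5789113-5789213, in an intron of the neighbouring gene Hat1. The third is the promoter of Rpt5, 3R:23752805-23752875, whose candidate, with a pooled signal of 57.8 and rank 2986, was outside the optimal list. The last is the promoter of Prosalpha6, 2L:10221187-10221350, which has a DRE but no pooled candidate. Both of these were picked from the 12 of 32 core promoters with a DRE.
Rpn3: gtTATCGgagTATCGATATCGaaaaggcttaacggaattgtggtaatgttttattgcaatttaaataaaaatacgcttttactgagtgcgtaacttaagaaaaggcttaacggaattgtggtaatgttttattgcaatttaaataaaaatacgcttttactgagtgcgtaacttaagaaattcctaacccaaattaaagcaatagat
Rpn5: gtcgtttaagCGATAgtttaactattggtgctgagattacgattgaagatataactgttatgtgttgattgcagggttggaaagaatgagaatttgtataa
Rpt5: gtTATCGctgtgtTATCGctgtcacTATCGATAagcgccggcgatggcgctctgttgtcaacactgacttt
Prosalpha6: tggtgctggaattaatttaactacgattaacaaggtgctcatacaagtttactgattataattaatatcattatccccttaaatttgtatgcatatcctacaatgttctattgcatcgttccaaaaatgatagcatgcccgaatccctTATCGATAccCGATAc

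Rpn3, a scaffold subunit of the lid, had the peak closest to its own start. The optimal peak lay at 2L:19051593-19051976 with its summit at 19051785, in intergenic DNA 5 bp upstream of the start. Its signal was 85.1 in the pooled list, rank 1554, below the median of the optimal list. In replicate 1 the matching candidate had a signal of 50.2 and rank 1924, and its summit lay 77 bp upstream of the start. In replicate 2 it had a signal of 35.1 and rank 1450, with the summit 2 bp downstream of the start. Both replicates thus placed it among their own 2241 strongest peaks, and it was the 1 proteasome promoter of which this held. The start of l(2)37Bb on the opposite strand lies 178 bp from that of Rpn3, but the Rpn3 start was the nearest to the summit.

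The printed Rpn3 sequence holds an exact copy of a 78 bp stretch, with the copies beginning 187 and 109 bp upstream of the start and following each other directly. The replicate 1 summit lay inside the copy nearer to the gene, and the pooled summit lay between that copy and the start. Of the 48 proteasome promoters, taken from 250 bp upstream to 50 bp downstream of the start, 1 held an exact repeat of at least 40 bp, against 24 of all 13968, or 0.172%. How reads from repeated stretches were placed is not given in the sources used here, and its part in the peak was not tested.

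Rpn5, another scaffold subunit of the lid, had the stronger of the promoter peaks, and the replicates differed there. The peak lay at 3R:5788971-5789354 with its summit at 5789163, 330 bp upstream of the Rpn5 start. The summit was in an intron of Hat1, a histone acetyltransferase gene on the opposite strand, and a Hat1 start was closer to it, at 89 bp. The pooled signal was 111 and the rank 982. In replicate 1 the candidate there had a signal of 34.7 and rank 4162, outside the 2241 strongest peaks of that replicate. In replicate 2 it had a signal of 70.9 and rank 358. Both replicate lists thus had a candidate at the Rpn5 peak, and only in replicate 2 was it among the 2241 strongest.

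When each optimal summit was credited only to the gene of the nearest transcript start, 1 of the 48 proteasome genes was left, Rpn3, or 2.08% (0.369 to 10.9%), against 9.03% of all protein-coding genes.

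**Figure D1:**
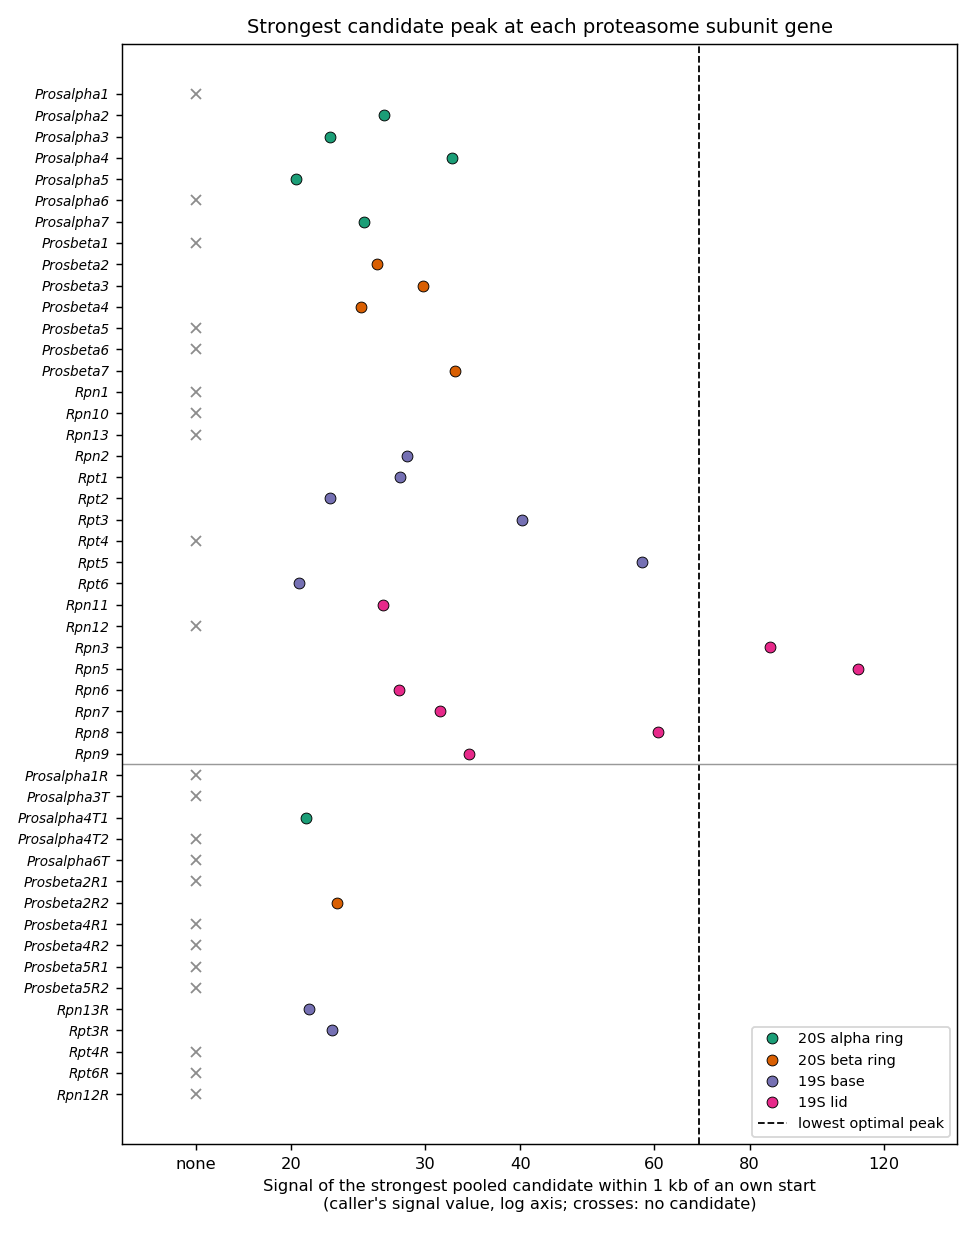
Signal of the strongest pooled candidate within 1 kb of an own transcript start (horizontal log axis, caller's signal value) for the 32 core genes, above the grey line, and the 16 paralogs, below it; colours give the subcomplex, crosses mark genes with no candidate, and the dashed line is the lowest optimal signal, 68.7. Rpn3 at 85.1 and Rpn5 at 111 lie right of the line, and the paralogs with a candidate lie below 30.

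The wider window, from 5 kb upstream of each gene to its end, held an optimal summit at 6 of the 48 genes, or 12.5% (5.86 to 24.7%), against 22.8% of all protein-coding genes. The other 4 genes were Prosbeta6, Prosbeta7, Rpn11 and Rpt2. The region of a proteasome gene spanned 5881 to 9500 bp. Among the 7997 protein-coding genes with regions in that range, 20.4% had an optimal summit in the region and 12.6% had one within 1 kb of an own start. The proteasome shares were lower than those of genes of similar size in each window, but their intervals include both background shares.

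At all 4 genes bound only in the wider window, the summit was upstream and closer to the start of another gene. Prosbeta6 and Prosbeta7 are beta ring subunits without peptidase activity. The Prosbeta6 peak, 3L:16612147-16612530, had a pooled signal of 123 and rank 790, and lay 1921 bp upstream of Prosbeta6 in intergenic DNA, 140 bp from a start of Su(P). Its replicate 1 signal was 95.5, rank 565, and its replicate 2 signal was 23.0, rank 2994. The Prosbeta7 peak, 3R:5361664-5362047, had a pooled signal of 125 and rank 768, 3492 bp upstream of the gene and in an intron of Cerk, the ceramide kinase gene. Its signal was 72.5, rank 938, in replicate 1 and 52.1, rank 719, in replicate 2. The Prosbeta7 peak was thus strong in both replicates, and the Prosbeta6 peak was outside the 2241 strongest of replicate 2.

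Rpt2 is an ATPase of the base known for opening the gate of the 20S core. Its peak, 3R:23934192-23934575, had a pooled signal of 119 and rank 847, in an intron of CG5854 and 2826 bp upstream of Rpt2. The signal was 54.3, rank 1643, in replicate 1 and 59.5, rank 535, in replicate 2. Rpn11 is the deubiquitinase of the lid. Its peak, 2L:5061032-5061415, had a pooled signal of 110 and rank 998, in an intron of qtc and 1434 bp upstream of Rpn11. Replicate 1 had a signal of 74.9 there, rank 877, with the same summit. Replicate 2 had no summit within 100 bp, and its nearest one, 133 bp away, had a signal of 34.1 and rank 1512. Rpn11 was thus the 1 of the 6 genes whose optimal peak had no replicate 2 summit within 100 bp.

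The strongest 2241 peaks of each replicate alone gave 6 proteasome genes each in the wider window. The share of all protein-coding genes in that window was counted for the optimal list, at 22.8%, and not for single replicates. Replicate 1 gave Prosbeta6, Prosbeta7, Rpn11, Rpn3, Rpt2 and the paralog Rpt3R, while replicate 2 gave Prosbeta7, Rpn11, Rpn2, Rpn3, Rpn5 and Rpt2. Rpn3, Prosbeta7, Rpn11 and Rpt2 stood in both sets. The Rpt3R peak lay 3041 bp upstream of the gene and 71 bp from a start of Mpi. Its signal was 67.1 in the pooled list, rank 2327, just under the lowest optimal signal, and 56.4 in replicate 1, rank 1527, but 9.71 in replicate 2, rank 19729. The Rpn2 peak, 1668 bp upstream of that base subunit gene and 62 bp from a start of eIF2D, had a pooled signal of 53.8, rank 3398. Its signal was 22.9 in replicate 1, rank 11832, and 29.9 in replicate 2, rank 1885, so the replicates differed there too.

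**Figure D2:**
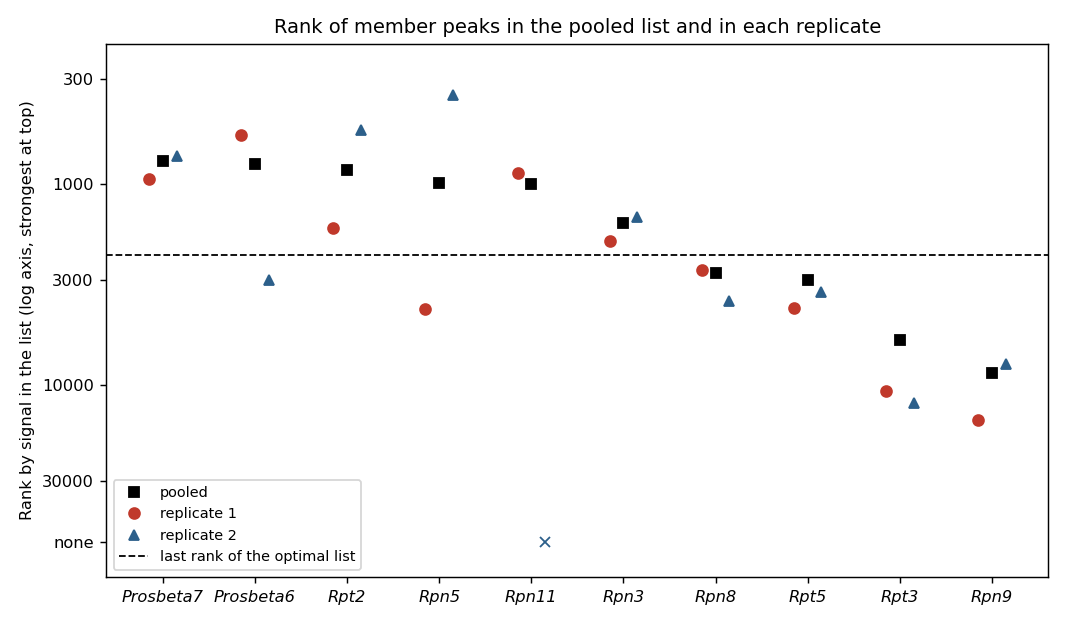
Rank by signal (vertical log axis, strongest at the top) in the pooled list, replicate 1 and replicate 2 of the 6 optimal peaks of proteasome genes and of the strongest candidates at Rpn8, Rpt5, Rpt3 and Rpn9; the dashed line is rank 2241, the last of the optimal list. The replicates lie far apart at Rpn5 (rank 4162 in replicate 1 and 358 in replicate 2) and Prosbeta6 (565 in replicate 1 and 2994 in replicate 2), and the cross marks Rpn11, which had no replicate 2 summit within 100 bp.

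Candidates of the whole pooled list, which includes the optimal peaks, were counted in the same windows. A pooled candidate lay within 1 kb of an own start at 26 of the 48 genes, or 54.2% (40.3 to 67.4%), against 57.3% of all protein-coding genes. In the wider window, 40 of the 48 had one, or 83.3%, against 83.8%. Both shares were close to the background, and their intervals include it. Replicate 1 listed a candidate within 1 kb at 24 of the 48 genes, against 56.6% of all protein-coding genes. Replicate 2 did so at 27 genes, or 56.2%, against 58.1%. Both replicates listed one at 17 genes, or 35.4% (23.4 to 49.6%), against 42.4%. All 17 were core genes. The summits of the replicate lists did not have to match for this count.

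The candidates were mostly weak. The strongest one within 1 kb was at or above 40 but below the optimal list at 3 of the 48 genes, or 6.25%, against 12.1% of all protein-coding genes. It was between 30 and 40 at 4 genes, or 8.33%, against 10.8%. It was under 30 at 17 genes, or 35.4%, against 21.1%. The remaining 22 genes, or 45.8%, had none, against 42.7%.

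Rpn8 and Rpt5 had the candidates closest to the lowest optimal signal of 68.7. Rpn8, the lid subunit that pairs with Rpn11, had a signal of 60.7, rank 2763, at a summit in its own intron, 139 bp upstream of an internal start. The signal there was 42.6, rank 2683, in replicate 1 and 20.3, rank 3796, in replicate 2. Rpt5, an ATPase of the base, had a signal of 57.8, rank 2986, at a summit 48 bp upstream of its start. It was 34.8, rank 4139, in replicate 1 and 21.4, rank 3443, in replicate 2. That summit lay in the 5′ UTR of RanBP3, a nuclear transport gene on the opposite strand, and 6 bp from a RanBP3 start. Both candidates were in both replicate lists, and neither was among the strongest 2241 peaks of either replicate.

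The next candidates were weaker and many lay inside the genes. The ATPase gene Rpt3 had a signal of 40.2 at a summit in its coding exon, 771 bp downstream of a start. The lid gene Rpn9 had a signal of 34.2 at a summit in its own 5′ UTR, 94 bp downstream of its start. Prosbeta7 had 32.8 in its own 5′ UTR, Prosalpha4 had 32.5 in an intron of kat80, and Rpn7 had 31.4 in its coding exon. Prosbeta3, a beta subunit without peptidase activity, had 29.8 in its coding exon. The Prosbeta7 and Prosalpha4 candidates had a replicate 1 summit within 100 bp, with signals of 26.7 and 33.6, and no replicate 2 summit. Rpn7 had the most candidates of any proteasome gene, 4 within 1 kb and 7 in the wider window.

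Of the 36 candidates within 1 kb of a proteasome gene start, 13 lay within 250 bp of it, or 36.1%, against 39.5% over all protein-coding genes and 55.5% over genes of cytosolic ribosomal proteins. Another 10 lay farther upstream, or 27.8%, against 33.6%, and 13 farther downstream, or 36.1%, against 26.9%.

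**Figure D3:**
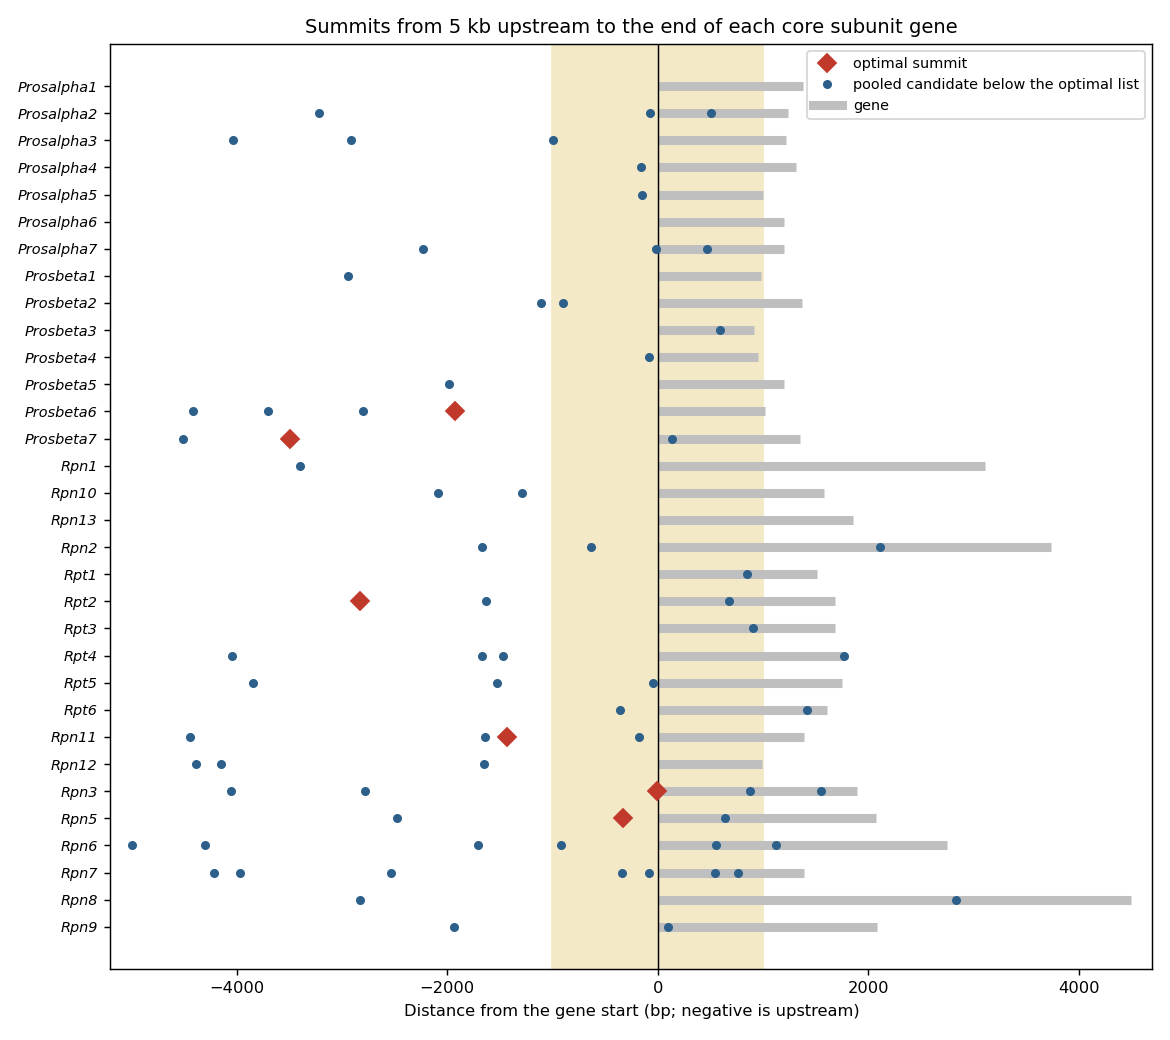
Optimal summits (red diamonds) and other pooled candidates (blue dots) from 5 kb upstream to the end of each of the 32 core genes, drawn by distance from the 5′-most gene start in bp, with the gene as a grey bar and the band of 1 kb on each side shaded. Diamonds fall in the band at Rpn3 and Rpn5 and upstream of it at Prosbeta6, Prosbeta7, Rpt2 and Rpn11, and the strongest Rpn8 candidate falls by an internal start.

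By subcomplex, the optimal summits within 1 kb were in the lid, at 2 of its 8 core genes (interval 7.15 to 59.1%), against 13.3% of all protein-coding genes. None was found at the 7 alpha ring, 7 beta ring or 10 base genes, and with so few genes a count of 0 allows a share of up to 42.9% in each ring. The wider window held an optimal summit at 3 of 8 lid genes, 2 of 7 beta ring genes, 1 of 10 base genes and 0 of 7 alpha ring genes, against 22.8%. A pooled candidate within 1 kb was present at 7 of 8 lid genes, 5 of 7 alpha ring genes, 4 of 7 beta ring genes and 6 of 10 base genes, against 57.3%. Both replicate lists had one at 7 of 8 lid genes, 3 of 7 alpha ring genes, 3 of 7 beta ring genes and 4 of 10 base genes, against 42.4%. The lid had the highest share in each count, but the 95% intervals of the 4 sets overlapped in all of them. The lid interval included the share of all genes except in the last count, where it ran from 52.9 to 97.8%. That count did not require the summits of the replicate lists to match. At Rpn6, for example, no pooled candidate within 1 kb had a summit within 100 bp in both replicate lists.

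The peptidases of the particle are Prosbeta1, Prosbeta2 and Prosbeta5. Prosbeta1 and Prosbeta5 had no pooled candidate within 1 kb, and that of Prosbeta2, with a signal of 25.9, lay 902 bp upstream in a coding exon of mRpL39. Rpn1, Rpn10 and Rpn13, the base subunits known to receive ubiquitin, had no pooled candidate within 1 kb. These sets were named after their values were seen. In all, 10 of the 32 core genes had none within 1 kb, or 31.2%, a lower share than the 42.7% of all protein-coding genes. Those not yet named were Prosalpha1, Prosalpha6, Prosbeta6, Rpn12 and Rpt4. Of the 10, Prosbeta6 and Rpn12 had a candidate there in both replicate lists although the pooled list had none. Prosalpha6 and Rpn10 had one in replicate 1 only, at ranks 20374 and 21031. Prosbeta1, Rpn13 and Prosbeta5 had one in replicate 2 only, at ranks 9621, 17396 and 21593. Prosalpha1, Rpn1 and Rpt4 had none in either replicate list. The remaining core genes, Prosalpha2, Prosalpha3, Prosalpha5, Prosalpha7, Prosbeta4, Rpn2, Rpn6, Rpn11, Rpt1, Rpt2 and Rpt6, each had a strongest candidate with a signal between 20.3 and 28.4.

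None of the 16 paralogs had an optimal summit within 1 kb or in the wider window, against 13.3% and 22.8% of all protein-coding genes. A count of 0 of 16 allows a share of up to 18.8%, which includes the first of these background shares. A pooled candidate lay within 1 kb at 4 of the 16 (interval 10.2 to 49.5%), and at 22 of the 32 core genes, or 68.8% (51.4 to 82.0%), against 57.3% of all protein-coding genes. The 4 were Prosalpha4T1 (signal 20.9), Prosbeta2R2 (23.0), Rpn13R (21.1) and Rpt3R (22.6), all near the bottom of the pooled list. No paralog had a candidate within 1 kb in both replicate lists, while 17 of the 32 core genes did, or 53.1% (36.4 to 69.1%), against 42.4% of all protein-coding genes. The other 12 paralogs, Prosalpha1R, Prosalpha3T, Prosalpha4T2, Prosalpha6T, Prosbeta2R1, Prosbeta4R1, Prosbeta4R2, Prosbeta5R1, Prosbeta5R2, Rpn12R, Rpt4R and Rpt6R, had no pooled candidate within 1 kb. Of these, Prosbeta4R1, Prosbeta4R2, Prosbeta5R2, Rpt4R and Rpt6R also had none in the wider window, as did the core genes Prosalpha1, Prosalpha6 and Rpn13. Prosbeta4R1 and Prosbeta4R2 lie side by side and share most of their surroundings.

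The surroundings of core genes and paralogs were unlike each other in these lists. The median distance from an own start to the nearest optimal summit was 7918 bp for core genes, 45289 bp for paralogs and 15054 bp for all protein-coding genes. It ran from 5 to 25629 bp in core genes and from 3999 to 155066 bp in paralogs. Within 10000 bp of an own start, 56.2% of core genes and 12.5% of paralogs had an optimal summit, against 40.2% of all protein-coding genes. Within 30000 bp the shares were 100% of core genes and 37.5% of paralogs, against 68.4%. The core genes were thus often near a bound site without one at their own start. The nearest start of another gene lay within 1 kb and on the opposite strand at 22 of the 32 core genes, or 68.8%. This was so at 4 of the 16 paralogs, against 38.3% of all protein-coding genes. Opposite starts farther than a nearer start on the same strand were not counted. The part of this gene density in the distances was not tested.

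**Figure D4:**
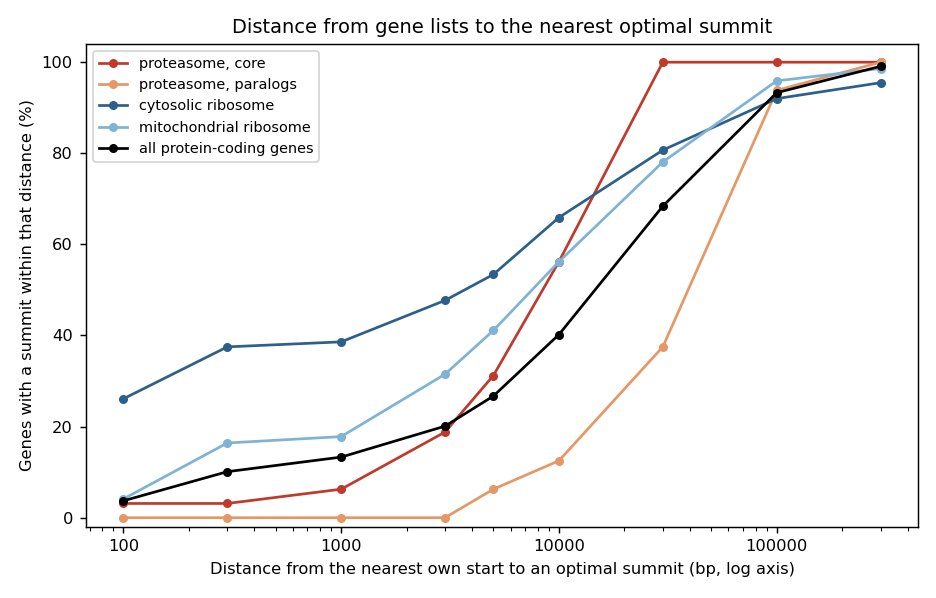
Share of genes (vertical axis, %) with an optimal summit within a given distance of the nearest own start (horizontal log axis, bp), for the core genes, the paralogs, the genes of cytosolic and mitochondrial ribosomal proteins and all protein-coding genes. The core line is at 6.25% at 1000 bp, below that of all protein-coding genes at 13.3%, and reaches 100% at 30000 bp, where all protein-coding genes stand at 68.4%.

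Genes of other proteins that work with the proteasome were counted in the same way. Of 18 such genes, 3 had an optimal summit within 1 kb, or 16.7% (5.84 to 39.2%), close to the 13.3% of all protein-coding genes. Pomp, the chaperone that matures the 20S core, had a peak of signal 141, rank 623, 264 bp upstream of its start, higher than at any subunit gene. Ubi-p63E, a polyubiquitin gene, had 80.8 at 26 bp upstream. The gene cnc, whose product is the fly relative of the Nrf factors that are known to raise proteasome gene expression, had 78.9 at 341 bp downstream of a start. Sem1, the smallest lid subunit, whose symbol is outside the rule for the 48 genes, had a strongest candidate of 38.0. The ubiquitin-activating enzyme gene Uba1 had 60.6.

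The COP9 signalosome is built like the lid, and the CCT chaperonin is another large particle of cytosolic subunits. Of 7 COP9 genes, CSN5 had an optimal summit within 1 kb, with a signal of 72.6 and with a start of CG42232 nearer, at 47 bp, and CSN8 had one in the wider window only, with a signal of 93.8. Of 8 CCT genes, none had one within 1 kb, and CCT5 had one in the wider window, with a signal of 113. Within 1 kb the COP9 share was 14.3% (2.57 to 51.3%), and the CCT count of 0 allows up to 37.5%, against 13.3% of all protein-coding genes. In the wider window the shares were 28.6% (8.22 to 64.1%) and 12.5% (2.24 to 47.1%), against 22.8%. With so few genes, neither list could be told from all genes.

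Most ribosomal protein genes, like the core proteasome genes, are active in nearly every cell. The cytosolic ribosomal list took every matching symbol and so kept paralogs such as RpL22-like, which the core proteasome set left out. With its paralogs kept, the proteasome share within 1 kb was 4.17% (1.15 to 14.0%). The share of core proteasome genes with an optimal summit within 1 kb was 6.25% (1.73 to 20.1%), against 38.6% (29.1 to 49.1%) of 88 genes of cytosolic ribosomal proteins, with intervals that did not overlap. It was 17.8% (10.7 to 28.1%) in 73 genes of mitochondrial ribosomal proteins, with an interval that overlapped that of the core proteasome genes. Pooled candidates within 1 kb were found at 68.8% of core proteasome genes, against 83.0% of cytosolic and 78.1% of mitochondrial ribosomal protein genes. These intervals cover counting error only, neighbouring genes can share a peak, and no test was made between the lists.

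**Figure D5:**
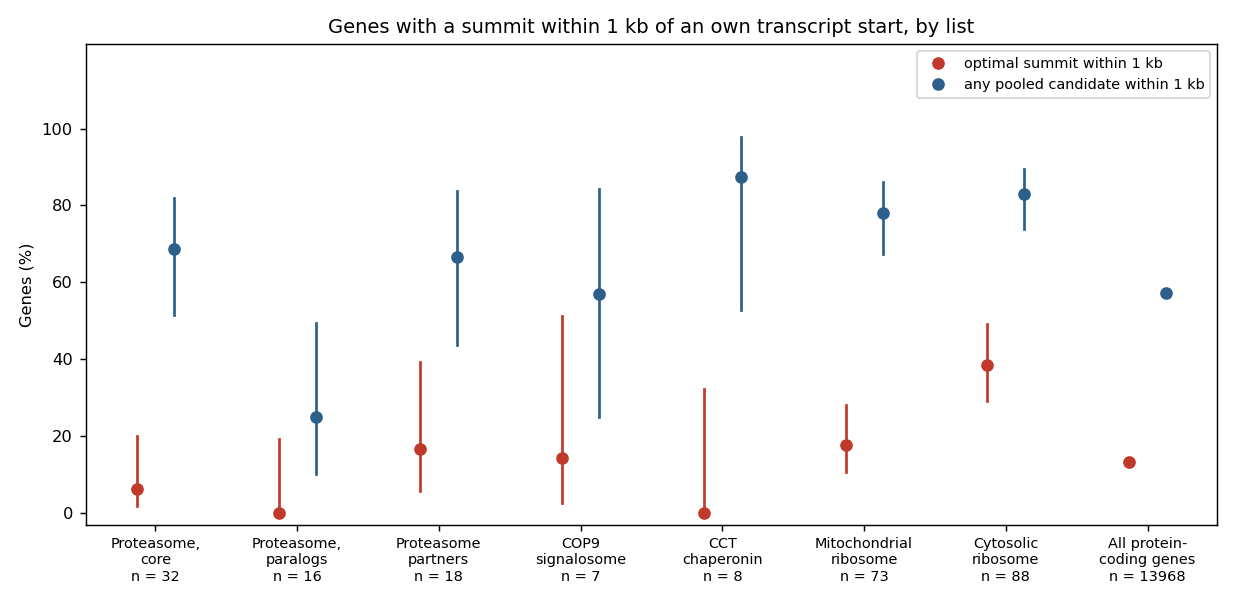
Share of genes (vertical axis, %) with an optimal summit (red) or any pooled candidate (blue) within 1 kb of an own transcript start, by gene list, with Wilson 95% intervals as bars; on the right are all protein-coding genes, at 13.3% and 57.3%. Red points stand at 6.25% for the core proteasome genes, 0% for the paralogs and 38.6% for cytosolic ribosomal protein genes.

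The DRE and the BEAF-32 core were more frequent in core promoters than in all protein-coding promoters. The choice of genes did not use sequence. Promoters were again 300 bp, from 250 bp upstream to 50 bp downstream of the gene start, and both strands were searched. A DRE was present in 12 of 32 core promoters, or 37.5%, and in 0 of 16 paralog promoters, against 9.36% of all protein-coding promoters. The 12 were Prosalpha3, Prosalpha5, Prosalpha6, Prosbeta1, Prosbeta2, Prosbeta6, Rpn3, Rpn7, Rpn9, Rpn12, Rpn13 and Rpt5. The BEAF-32 core CGATA, which every DRE contains, was in 27 of 32 core promoters, or 84.4%, and in 8 of 16 paralog promoters, against 47.3%. Ribosomal protein promoters also had both sites more often than all promoters did. A DRE was in 31.8% of the cytosolic and 20.5% of the mitochondrial ones, and CGATA in 72.7% and 58.9%. In the printed sequences, Rpt5 has its DRE 46 bp and Prosalpha6 16 bp upstream of the start.

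Other sites varied in how their shares stood to those of all promoters. The M1BP core GGTCACACT, the site of another factor of housekeeping promoters, was in 5 of 32 core and 0 of 16 paralog promoters, against 6.04% of all. The homeodomain core TAATTA was in 3 of 32 core and 2 of 16 paralog promoters, against 20.4%. The Islet-type site TAATGG was in 5 of 32 and 2 of 16, against 12.1%. The letters TGANNNNGC, a loose form of the antioxidant response site known for cnc and its partner, were also counted. They were in 10 of 32 core promoters, or 31.2%, and 4 of 16 paralog promoters, against 35.5%. A stricter form of that site was not counted. The E-box CACGTG was in none of the 48, against 4.2% of all. The E-box CAGCTG was in 1 core and 1 paralog promoter, Rpt3 and its paralog Rpt3R, against 17.6%. The TATA sequence TATAAA was in 13 of 32 core and 5 of 16 paralog promoters, against 45.8%.

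Among the core genes, the counts were too small to relate a DRE in the promoter to an optimal summit. Of the 12 core promoters with a DRE, 1 was bound, that of Rpn3, against 1 of the 20 without, that of Rpn5. Over all protein-coding genes, 20.4% of 1307 promoters with a DRE were bound, against 12.6% of those without. Among cytosolic ribosomal protein genes, 12 of 28 with a DRE were bound, or 42.9%, against 36.7% of those without. Among mitochondrial ribosomal protein genes, 2 of 15 with a DRE were bound, against 11 of 58 without, the lower share being with a DRE. Neither the Rpn3 nor the Rpn5 window of 101 bp around the summit held a DRE, and 1.43% of all 2241 optimal windows did. The nearest DRE to the Rpn3 summit was 81 bp away. The Rpn5 window held a CGATA match, as did 15.3% of all optimal windows. Neither held TAATTA or TAATGG, which were in 9.28% and 4.55% of all optimal windows. A match is a description of the letters and not a sign of binding.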

How the data were processed

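ChIP-seq peaks for GFP-tagged tup in embryos were analysed from the lists as deposited in dm6. Per the labels, chromatin was sonicated to fragments of 200 to 800 bp. The signal value and the -log10 q value of each peak were written by the authors' peak caller, and the third value used, the summit offset within each peak, was also deposited by the authors. Ranks used signal. The -log10 q value was not used for any result. The peak caller, aligner and reproducibility threshold were not given in the sources used here. Lists in dm3 were not used.

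Genes came from Ensembl release 115, assembly BDGP6.54, and sequence from RefSeq. Of 18277 genes without transposable elements, 13968 were protein-coding. No pooled candidate ended past a chromosome end. A summit counted at a promoter within 1000 bp of any annotated transcript start of the gene, and in the gene region from 5000 bp upstream to the gene end. Replicate summits within 100 bp of a pooled summit were matched to it. Genes with a candidate in both replicate lists were counted without such matching. Shares have Wilson 95% intervals, and a count of 0 is limited by 3 counts. Both cover counting error only. No test was made, since there was 1 group. The members and lists were chosen with earlier results of these data known. Named genes were those with an optimal summit, the 8 unbound core genes with the strongest candidates, and listed neighbours, of which 1 is not reported here. Of the context names, Ufd1-like and CSN2 matched no gene. Counting was tested on simulated data with placed peaks. Python 3.11.15, numpy 2.4.6, scipy 1.17.1 and matplotlib 3.10.9 were used. Alternatives covered distances, starts, signal, overlap, nearest start, each replicate and the motif window.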

Additional observations from a re-analysis of the deposited data

How the results depend on the processing

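No paired analysis was possible because both replicates belong to 1 group. The 2 proteasome genes with an optimal summit within 1 kb, both core genes, became 1 within 250 bp, 1 among optimal peaks above the median signal, and 1 when only the nearest start counted. With 1 replicate left out, the count for all proteasome genes and for core genes ran from 1 to 2. It was 2 in the remaining alternatives run (within 500 bp, the 5′-most start only, and any overlap of the peak). The count for paralogs was 0 in every alternative run. Over all protein-coding genes, 1857 became 1073 above the median signal, where fewer peaks enter. That count was 1630 within 500 bp, 1299 within 250 bp and 1262 when only the nearest start counted. It was 1675 with the 5′-most start only, 1936 with any overlap, and 1760 or 1855 with 1 replicate left out. The 6 genes with an optimal summit in the wider window became 2 when it began 1 kb upstream, and ran from 4 to 6 in the other alternatives. The 26 genes with a pooled candidate within 1 kb became 16 within 500 bp and 13 within 250 bp, and numbered 24 to 27 in a single replicate. The count of promoter peaks with a DRE near the summit, 0 in the 101 bp window, became 1 with 100 bp on each side. Depth is unknown, so weak candidates cannot be set against a background level, and shares over 16 or 7 genes have wide intervals.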
